A study of Mus musculus with 2 samples.

Results

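The genes described here are the rod and cone phototransduction cascade, 31 genes chosen by name from the 32285 features of 1 mouse library. They encode transducin, phosphodiesterase 6, the cyclic nucleotide-gated channel, the exchangers, the shut-off and calcium-sensing proteins, and several chaperones. All 31 had UMIs (unique molecules counted) in rod-like and in cone-like nuclei, and all passed the minimum of 20 UMIs in that comparison.

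The library, named T1, came from SeekSpace, a method that isolates nuclei from a tissue section and reads the RNA of each nucleus together with its place in the tissue. Per the labels, the 2 deposited samples are the expression and the spatial-barcode library of a 10 micrometre section of fresh-frozen retina from 1 eye of a C57BL/6J mouse, with no treatment. The design text names heterozygous Prph2C213Y/+ mice and age- and sex-matched wild types on that background, with spatial data at 6 months, but leaves T1 without a genotype. No genotype was assigned or inferred here, so there are no groups, no replicates and no p-values. After filtering, 16867 of 17285 barcodes remained, with a median of 1811 UMIs. Doublets remain among them. The nuclei lay in 4 ring-shaped pieces on the chip, of 4483, 4119, 3699 and 4566 nuclei, although the labels name 1 section. The labels do not say what the pieces are.

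Phototransduction turns the capture of light into an electrical signal. Light-activated opsin switches on transducin, transducin releases the brake on phosphodiesterase 6, and the fall in cyclic GMP closes cation channels in the outer segment membrane. Arrestin, a kinase and the RGS9 complex end the response, while calcium-sensing proteins and guanylate cyclases restore cyclic GMP. Rods and cones run the same sequence largely with separate paralogues, which is why the genes fall into a rod set, a cone set and a shared set.

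The gene starts are shown for the members on which the comparison of rod and cone nuclei turns. RefSeq (GRCm38.p6) held windows before the annotated start for 20 of the 31 members, 24 windows in all. Each line gives the 250 bases before a start, 5′ to 3′ on the gene's strand. Capitals mark TAATCC, the core letters bound by CRX and OTX2, the homeodomain factors of photoreceptors, or the same letters on the other strand (GGATTA). Sag, Cngb1, Gucy2e, Gucy2f and Guca1a are members within 2-fold of each other in rod-like and cone-like nuclei. Gnat2 and Arr3 are members high in cone-like nuclei, Gnat2 with the core and Arr3 without it. Some transcripts of these genes start further upstream, so all windows but that of Cngb1 overlap the annotated span of their gene.
Sag, chr1:87803430-87803679, plus strand: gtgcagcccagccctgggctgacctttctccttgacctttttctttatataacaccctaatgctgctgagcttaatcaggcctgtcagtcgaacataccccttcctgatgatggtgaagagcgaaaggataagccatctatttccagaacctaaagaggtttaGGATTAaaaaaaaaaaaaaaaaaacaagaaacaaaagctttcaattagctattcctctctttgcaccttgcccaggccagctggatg
Cngb1, chr8:95306586-95306835, minus strand: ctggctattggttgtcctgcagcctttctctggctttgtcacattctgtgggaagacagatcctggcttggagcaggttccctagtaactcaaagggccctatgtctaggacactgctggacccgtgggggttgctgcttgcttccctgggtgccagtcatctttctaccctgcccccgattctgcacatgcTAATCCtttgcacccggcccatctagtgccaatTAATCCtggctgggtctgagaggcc
Gucy2e, chr11:69237023-69237272, minus strand: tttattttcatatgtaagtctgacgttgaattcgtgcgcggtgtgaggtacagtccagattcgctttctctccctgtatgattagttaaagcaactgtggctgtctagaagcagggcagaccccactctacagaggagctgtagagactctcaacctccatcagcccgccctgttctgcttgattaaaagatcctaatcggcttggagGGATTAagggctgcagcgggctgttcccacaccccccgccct
Gucy2f, chrX:142196937-142197186, minus strand: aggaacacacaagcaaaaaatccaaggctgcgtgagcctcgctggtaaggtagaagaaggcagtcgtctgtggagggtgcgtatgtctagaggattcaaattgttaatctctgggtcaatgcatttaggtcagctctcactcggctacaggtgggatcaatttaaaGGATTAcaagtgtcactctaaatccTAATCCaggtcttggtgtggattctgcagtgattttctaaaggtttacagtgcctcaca
Guca1a, chr17:47400607-47400856, minus strand: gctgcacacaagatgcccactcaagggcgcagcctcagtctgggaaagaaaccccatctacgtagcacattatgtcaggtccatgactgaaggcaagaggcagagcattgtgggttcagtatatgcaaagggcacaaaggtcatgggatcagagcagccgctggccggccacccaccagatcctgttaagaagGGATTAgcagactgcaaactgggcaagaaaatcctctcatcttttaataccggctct
Gnat2, chr3:108092816-108093065, plus strand: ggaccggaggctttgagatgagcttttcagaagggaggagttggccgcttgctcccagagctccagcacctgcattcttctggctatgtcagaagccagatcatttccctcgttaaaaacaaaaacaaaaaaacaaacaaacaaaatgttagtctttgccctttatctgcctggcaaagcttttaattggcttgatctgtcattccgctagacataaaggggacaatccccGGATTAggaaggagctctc
Arr3, chrX:100605247-100605496, plus strand: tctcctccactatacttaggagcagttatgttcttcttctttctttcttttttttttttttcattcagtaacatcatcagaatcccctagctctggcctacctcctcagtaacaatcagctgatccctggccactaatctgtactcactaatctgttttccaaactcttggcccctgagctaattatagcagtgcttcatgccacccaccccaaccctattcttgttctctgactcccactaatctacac

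The core was found in 10 of the 24 windows (41.7%), and in 6.25% of all 32851 windows of the same length. The members with it were Aipl1, Cnga1, Cngb1, Gnat2, Gngt1, Guca1a, Gucy2e, Gucy2f, Sag and Unc119. Cngb1 had 2 copies, at 58 and 25 bases before the start, and Gucy2f had 2, at 84 and 59 bases. Of the 5 cone-high members with a window, 1 held the core, and of the other 15 members, 9 did. The MAF core TGCTGA on either strand, letters that NRL can read, was in 20.8% of member windows and 16.1% of all windows. The E-box CAGATG on either strand was in 12.5% of member windows and 14.4% of all windows. These 3 motifs were the ones searched, none contains another, and a match describes letters only.

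Nuclei were clustered without the members and named from marker genes, none of which is a member. This gave 5769 rod-like nuclei with a median of 1064 UMIs and 604 cone-like nuclei with a median of 2458.5 UMIs. Nrl and Nr2e3, transcription factors of rods, had 425 and 541 CPM in rod-like nuclei, and Opn1mw and Opn1sw, the cone pigments, at 1730 and 1250 CPM in cone-like nuclei. CPM is a gene's UMIs pooled over a class and scaled to a fixed total, the same for every class, and its range in brackets is an exact Poisson 95% interval, which covers counting error only. Levels of different genes are not compared with each other. The cone-like nuclei also held rod RNA: Nrl was at 79.2% and Nr2e3 at 64.3% of the rod-like level there.

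By pooled level, the cascade divided into genes within 2-fold between rod-like and cone-like nuclei and genes higher in cone-like nuclei. A gene was called high in a class when the lower bound of its level was at least 2 times the upper bound in the other. By that rule 9 members were cone-high, where 4.48% of 12155 genes were, and 0 members were rod-high, where 0.0494% were. The cone-high members were Gnat2, Gngt2, Gnb3, Pde6c, Pde6h, Cnga3, Cngb3, Arr3 and Slc24a2. The median log2 ratio of rod-like to cone-like level was -5.98 for these 9, 0.08 for the other 22 and 0.05 for all 12138 genes with UMIs in both.

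**Figure D1:**
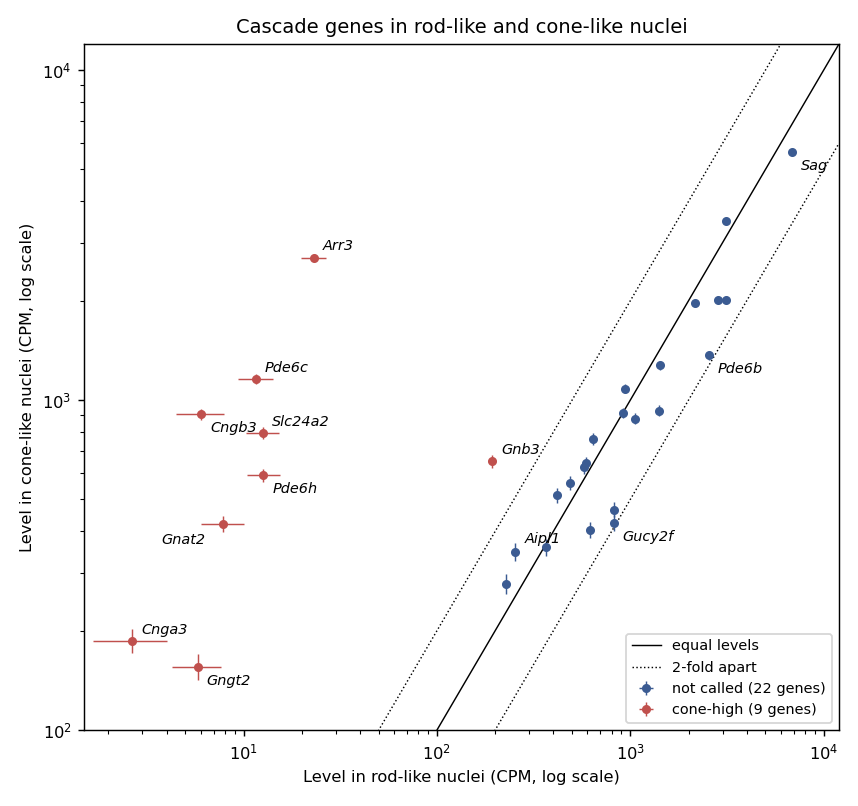
Level of each of the 31 genes in rod-like nuclei (x axis, CPM, log scale) and cone-like nuclei (y axis, CPM, log scale). Bars are exact Poisson 95% intervals, the solid line marks equal levels and the dotted lines 2-fold differences. The 9 cone-high genes lie left of the lines and the other 22 lie between them.

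The rod-high count depended on how nuclei were clustered and weighted. It was 0 with 3 other seeds of the clustering, and 3 (Cnga1, Gucy2f and Pde6b) at resolution 2, with approximate neighbours or with clustering run to convergence, where 0.787, 0.55 and 0.526% of genes were called. It was 7 (also Cngb1, Gnb1, Guca1b and Pde6a) with the members among the clustering genes, where 1.09% were called, and with every nucleus thinned to 500 UMIs, where 1.11% were. The 9 cone-high members were the same in 5 other clusterings that were compared by name.

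Transducin, the G protein that relays the opsin signal, differed by subunit. Gnat2, the cone alpha subunit, had 65 UMIs in rod-like nuclei, or 7.85 CPM (6.06 to 10.0), and 1274 UMIs in cone-like nuclei, or 420 CPM (398 to 444). That is 53.6 times higher in cone-like nuclei. Gnat1, the rod alpha subunit, stood at 3112 CPM in rod-like and 3479 CPM in cone-like nuclei, and the direction of that small difference flipped, to a log2 ratio of 0.57 in favour of rods, when nuclei were thinned. Gngt2, the cone gamma subunit, stood at 5.80 CPM in rod-like and 156 CPM in cone-like nuclei. Its gene overlaps Abi3 in the annotation, as Gnat2 overlaps Gm12500, Guca1a overlaps 1700001C19Rik, Rcvrn overlaps Glp2r and Aipl1 overlaps Pimreg. Reads of overlapping genes may be counted for either. Gngt1, the rod gamma subunit, stood at 227 and 277 CPM, a direction that also flipped with thinning. Gnb3, the beta subunit of cones, was the member least separated among the cone-high ones: rod-like nuclei had 193 CPM (183 to 202) and cone-like nuclei 652 CPM (623 to 681), 3.38 times as much. Gnb1, its rod counterpart, which most cell types express, stood at 2836 and 2014 CPM.

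Phosphodiesterase 6, which breaks down cyclic GMP, split in the same way. Pde6c, the cone catalytic subunit, stood at 11.6 CPM in rod-like and 1160 CPM in cone-like nuclei, 100.1 times as much. Pde6h, the cone inhibitory subunit, stood at 12.7 and 592 CPM, 46.7 times as much. The rod catalytic subunits were counted in cone-like nuclei too: Pde6a stood at 3127 CPM in rod-like and 2017 CPM in cone-like nuclei, and Pde6b at 2540 and 1368 CPM. Pde6g, the rod inhibitory subunit, stood at 941 and 1084 CPM, and that direction flipped with thinning.

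The channel and the exchangers divided likewise. Cngb3, the cone channel's beta subunit, was at 6.04 CPM (4.48 to 7.96) among rod-like nuclei and reached 907 CPM (873 to 942) among cone-like ones, 150.2 times as much and the largest ratio of the 31 genes. Cnga3, the cone alpha subunit, stood at 2.66 and 186 CPM. Cnga1 and Cngb1, the rod subunits, stood at 826 and 1408 CPM in rod-like and at 466 and 929 CPM in cone-like nuclei. Slc24a2, the cone sodium, calcium and potassium exchanger, stood at 12.6 and 794 CPM. Slc24a1, the rod exchanger, had 1054 and 879 CPM.

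Among the shut-off proteins, Arr3, the cone arrestin, was at 23.1 CPM (19.9 to 26.6) among rod-like nuclei and reached 2703 CPM (2645 to 2763) among cone-like ones. Thinned to 500 UMIs, 76.1% of cone-like, 0.865% of rod-like and 0.567% of fibroblast-like nuclei had an Arr3 UMI; unthinned the shares were 94.2, 2.39 and 0.901%, at medians of 2458.5, 1064 and 1442 UMIs. By CPM, rod-like nuclei had less Arr3 than fibroblast-like nuclei, a class that should lack the gene, where it was 51.0. Sag, the rod arrestin, was high in both, at 6882 and 5646 CPM, with a UMI in 93.3% of thinned rod-like, 85.8% of thinned cone-like and 8.85% of thinned fibroblast-like nuclei. Unthinned, those Sag shares were 97.7, 98.7 and 14.2%. Sag does not stand for all rod genes here. In thinned rod-like and cone-like nuclei the shares were 65.6 and 33.3% for Gnat1, and 77.4 and 30.3% for Pde6a. They were 70.8 and 21.4% for Pde6b, and 49.0 and 18.1% for Cngb1. For Pde6g (32.6 and 31.3%) and Gngt1 (8.85 and 8.03%) they were close. Grk1, the kinase that phosphorylates opsin, stood at 1421 and 1273 CPM, and Rcvrn, the calcium sensor that restrains it, at 588 and 644 CPM. Rgs9, which speeds the shut-off of transducin, stood at 2155 and 1966 CPM, and Rgs9bp, its membrane anchor, at 364 and 358 CPM.

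The cyclases and their activators were counted in both classes, and the part of rod RNA in the cone-like levels was not tested. Gucy2e and Gucy2f, the guanylate cyclases, stood at 576 and 820 CPM in rod-like and at 625 and 425 CPM in cone-like nuclei; the small cone excess of Gucy2e flipped with thinning. Gucy2f made up 58.7% (57.8 to 59.6%) of the UMIs of both cyclases in rod-like nuclei and 40.5% (38.8 to 42.2%) in cone-like nuclei; these intervals are exact Clopper-Pearson ones. Guca1a and Guca1b, the calcium sensors that drive the cyclases, stood at 417 and 618 CPM in rod-like and at 514 and 405 CPM in cone-like nuclei. Guca1b made up 59.7% (58.7 to 60.8%) of the UMIs of the pair in rod-like and 44.0% (42.2 to 45.9%) in cone-like nuclei. The chaperones and trafficking proteins were close in both: Pdc, which binds transducin's beta and gamma subunits, stood at 916 and 915 CPM. Aipl1, the chaperone of phosphodiesterase 6, stood at 254 and 347 CPM and was higher in cone-like nuclei in all 17 settings compared. Unc119, which carries lipid-tagged transducin, stood at 487 and 560 CPM, and Reep6, an endoplasmic reticulum protein of rods, at 645 and 760 CPM, and both of these directions flipped with thinning.

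Pooled levels and levels per nucleus differed for the 22 members that were not cone-high. Pooled, 13 of the 22 were higher in rod-like nuclei; with equal weight for every nucleus 18 were, and thinned to 500 UMIs 19 were. A 10-gene rod set (Gnat1, Gnb1, Gngt1, Pde6a, Pde6b, Pde6g, Cnga1, Cngb1, Sag and Slc24a1) took a median of 2.14% of a rod-like nucleus's UMIs and 0.78% of a cone-like nucleus's. Cone-like nuclei had a long upper end, with a 95th percentile of 2.91% against 3.40% in rod-like nuclei. The part of free RNA and doublets in these values was not tested.

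The share of each cone paralogue was higher in cone-like than in rod-like nuclei in 9 of 9 pairs, with intervals apart. In cone-like nuclei the shares ran from 10.8% (Gnat2 of Gnat1 and Gnat2) to 49.4% (Cngb3 of Cngb1 and Cngb3). In rod-like nuclei they ran from 0.204% (Pde6c) to 6.36% (Gnb3). Arr3 made up 32.4% of arrestin UMIs in cone-like and 0.334% in rod-like nuclei. The direction of all 9 pairs held in every alternative tried for them.

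**Figure D2:**
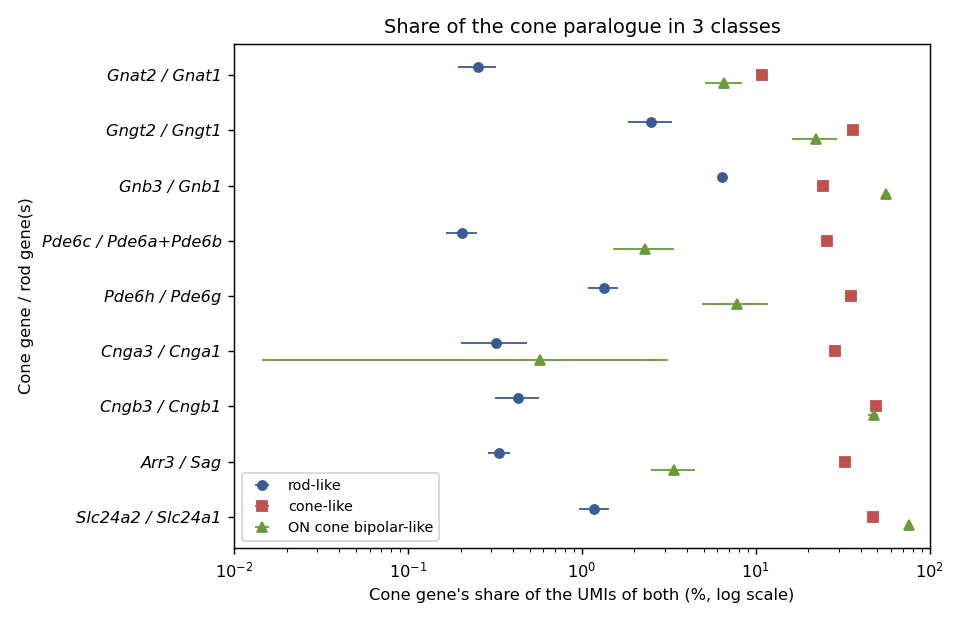
Share of the cone gene in the UMIs of the cone and rod genes together (x axis, percent, log scale) for 9 pairs (y axis) in rod-like, cone-like and ON cone bipolar-like nuclei. Bars are exact Clopper-Pearson 95% intervals. Each cone-like share lies right of the rod-like share. In ON cone bipolar-like nuclei the shares of Gnb3 and Slc24a2 are higher than in cone-like nuclei, and that of Cngb3 is nearly as high.

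Cone-set RNA in rod-like nuclei was low and uneven. It was between 0.666 and 3.72% of the cone-like level for 8 of the 9 members and 29.6% for Gnb3. Gnb3 was the only cone-set gene above 5% of its cone-like level in rod-like nuclei.

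Over bipolar-like nuclei, 30 of 31 members were photoreceptor-high, where 10.6% of 13903 genes were; Gnb3 was the exception, at 346 CPM in bipolar-like nuclei, and it too passed at resolution 2, with approximate neighbours, convergence or thinning, and with the members among the clustering genes. Bipolar cells carry the signal of photoreceptors to the inner retina. By type, Gnb3 stood at 508 CPM in rod bipolar-like, 475 CPM in ON cone bipolar-like and 77.4 CPM in OFF bipolar-like nuclei. Gnb3 is a subunit of the G protein of ON bipolar cells. Cngb3 stood at 433 CPM in 1 of the 2 ON cone bipolar-like clusters and 40.8 CPM in the other, and at 440 CPM in the cluster whose type was not named. Slc24a2 stood at 453 CPM in ON cone bipolar-like, 753 CPM in the unnamed type and 23.4 CPM in rod bipolar-like nuclei. Gucy2e was at 229 CPM in the unnamed type against 35.8 to 120 CPM in the others. Of 30 members measured, 22 differed between bipolar groups, where 13.5% of genes did. The ON cone bipolar-like group held the most rod RNA. Its rod-side members stood at a median of 13.4% of the rod-like level, against 3.24 to 6.94% elsewhere, so the part of rod RNA in the 22 was not tested.

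**Figure D3:**
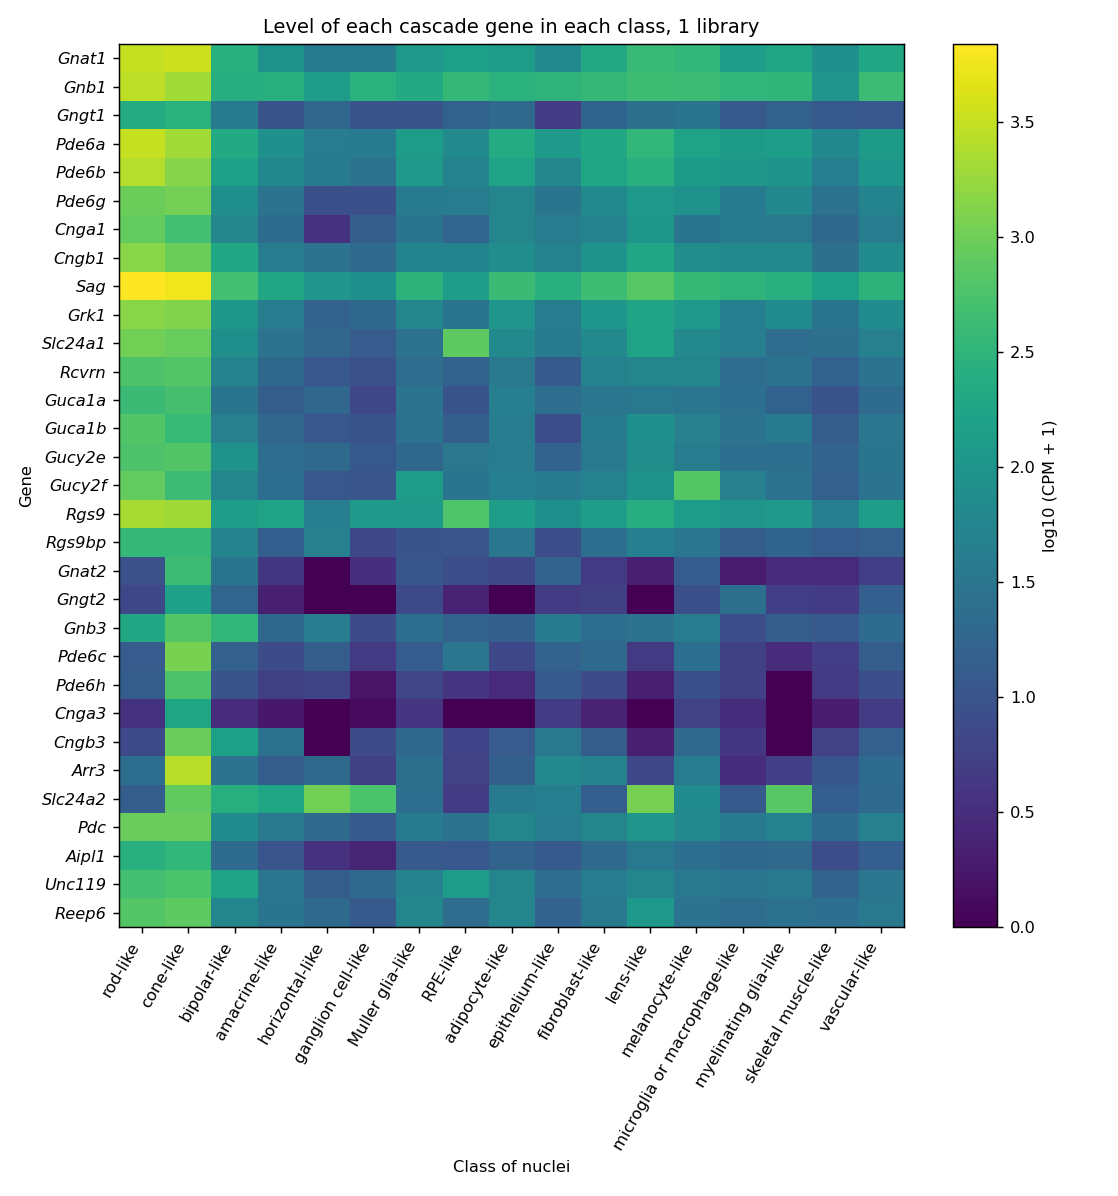
Level of each of the 31 genes (rows) in 17 classes of nuclei (columns), as log10 of CPM plus 1. Most rows are brightest in rod-like and cone-like nuclei; Slc24a1 in RPE-like, Gucy2f in melanocyte-like and Slc24a2 in lens-like and horizontal-like nuclei stand out elsewhere.

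Outside photoreceptors, rod RNA was found at a low level in each of the other 15 classes. The median of the 22 rod-side and shared members ran from 1.35% of the rod-like level in ganglion cell-like to 12.0% in lens-like nuclei, and in the same classes Nrl was at 1.73 and 10.4% and Nr2e3 at 1.20 and 10.9% of theirs. Levels near those shares are at the background that these rod factors show. Class-high members, above every other named class by the same rule, numbered 7, where 10.8% of 18451 genes were: Arr3, Cnga3, Cngb3, Gnat2, Gngt2, Pde6c and Pde6h. The count was 10, with Cnga1, Gnb3 and Pde6b added, with approximate neighbours or clustering to convergence, where the share of all genes is not given here.

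A few members stood far above that background outside photoreceptors. Slc24a1 stood at 773 CPM (745 to 802) in RPE-like nuclei, the pigment epithelium that supports photoreceptors, or 73.3% of its rod-like level, while Nrl stood at 2.78% and Nr2e3 at 2.03% of theirs. In the 4 pieces it was 811, 666, 864 and 729 CPM. Rgs9 stood at 609 CPM in RPE-like nuclei, and at 551, 561, 632 and 673 CPM by piece. Every piece lay above the level of fibroblast-like nuclei, 68.5 CPM for Slc24a1 and 140 CPM for Rgs9. Gucy2f stood at 658 CPM (597 to 723) in melanocyte-like nuclei, with 629, 662, 849 and 566 CPM by piece, and at 125 CPM in Müller glia-like nuclei.

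Slc24a2 was higher in lens-like and horizontal-like nuclei than in cone-like nuclei. It stood at 1123 CPM in lens-like, 1045 CPM in horizontal-like, 682 CPM in myelinating glia-like and 570 CPM in ganglion cell-like nuclei. In lens-like nuclei it came from 1 of 2 clusters, at 2302 CPM against 11.3 CPM. In horizontal-like nuclei the 4 pieces gave 1083, 1026, 1134 and 949 CPM, which do not differ beyond their intervals. Amacrine-like clusters ranged from 47.6 to 796 CPM. Gngt2 stood at 25.5 CPM in microglia or macrophage-like nuclei, from 24 UMIs, and its overlap with Abi3 applies there too.

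**Figure D4:**
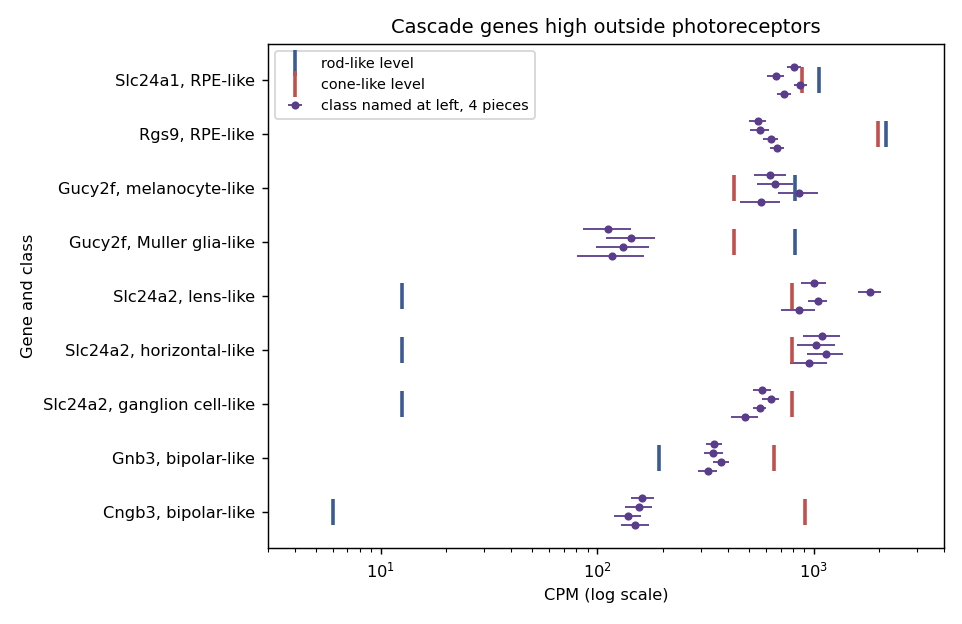
Levels (x axis, CPM, log scale) of members high outside photoreceptors, with 1 point per tissue piece and exact Poisson 95% intervals, for the gene and class at left. Vertical marks give the rod-like and cone-like levels of the same gene. Slc24a1 in RPE-like nuclei lies near both marks in all 4 pieces, and Slc24a2 lies far above its rod-like mark.

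Within rod-like nuclei the pieces shared a pattern. In 26 of 31 members the levels of pieces 1 and 4 were both above those of pieces 2 and 3, where 21.7% of 11242 genes were, and in 2 members (Sag and Gnb3) they were both below, where 20.1% were. The order was taken from the values without their intervals. Among the 26 are Gnat2, Gngt2, Pde6c, Pde6h and Cnga3, cone-set genes with few UMIs in rod-like nuclei. Cnga3 had 9, 2, 1 and 10 UMIs in pieces 1 to 4, and Gngt2 stood at 5.16 CPM in piece 4 and 5.02 CPM in piece 2. The median UMIs per rod-like nucleus in pieces 1 to 4 were 941.5, 1187.5, 1198 and 1016. With thinning the count was 21, and it was 17 to 26 over the 5 alternatives run, 2 of which left out rod-like clusters.

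By the 2-fold rule, 1 member differed between pieces in rod-like nuclei, where 0.667% of genes did. That was Gnb3, at 98.8, 311, 314 and 98.1 CPM in pieces 1 to 4, with pieces 2 and 3 high and their intervals clear of pieces 1 and 4; thinned to 500 UMIs it was not called. Cone-like nuclei gave 543, 868, 773 and 428 CPM, in the same order of groups, although 0 members were called there, where 0.82% of genes were. Rod-like nuclei had 6288, 8070, 7245 and 6202 CPM of Sag, and its share of Sag and Gnat1 UMIs was 64.4, 73.8, 75.2 and 64.1%. Among the other members with at least 200 UMIs in every piece, Gngt1 differed most, at 288, 184, 153 and 258 CPM. The median ratio of highest to lowest piece was 1.36 for the members and 1.41 for all genes.

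**Figure D5:**
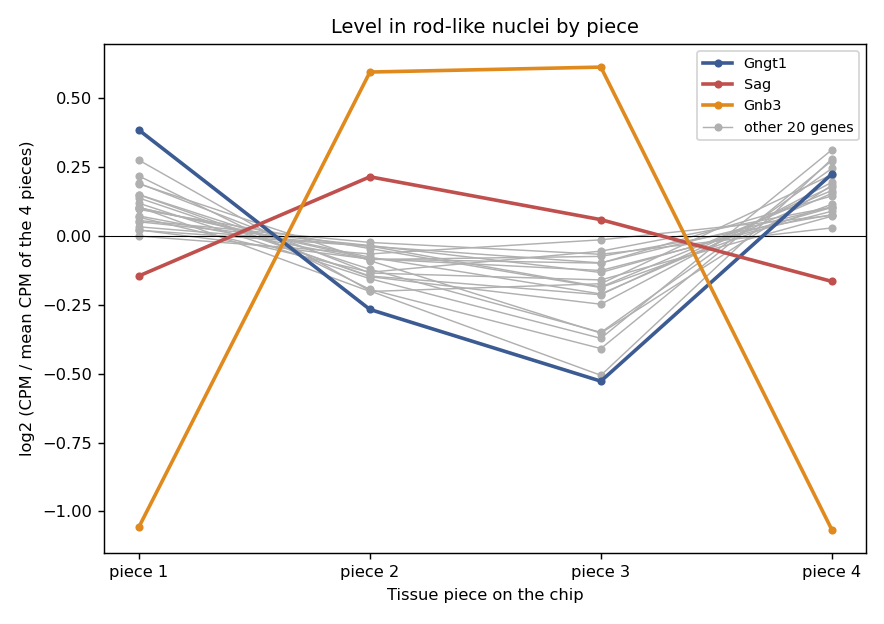
Level in rod-like nuclei by tissue piece, as log2 of CPM over the mean of the 4 pieces, for the 23 members with at least 200 UMIs in every piece. Lines join the values of a gene and imply no order. Gnb3 and Sag are higher in pieces 2 and 3 and the other 21 genes, Gngt1 among them, are lower there.

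Within the pieces, levels of Sag also varied from side to side. The side of each ring with more Vax2, a transcription factor of the ventral retina, had 126, 151, 134 and 151 CPM of Vax2 in pieces 1 to 4, against 42.9, 47.9, 62.5 and 30.7 CPM on the other. Opn1sw made up 52.6, 67.5, 56.2 and 48.7% of cone pigment UMIs there and 25.3, 20.1, 24.8 and 17.6% on the other side. Sag in rod-like nuclei was 6723, 8834, 7607 and 6848 CPM on that side, and 5491, 7138, 6670 and 5462 CPM on the other, higher in 4 of 4 pieces. In rod-like nuclei 5 members (Sag, Grk1, Gucy2f, Rgs9 and Gnb3) were higher there in 4 of 4 pieces, where 7.35% of genes were, and 4 (Gnb1, Cngb1, Guca1a and Slc24a2) were lower in 4 of 4, where 7.11% were. The intervals of the 2 sides overlapped for Gnb3, Guca1a and Slc24a2 in every piece, and Slc24a2 rested on 9 to 18 UMIs per side and piece. Pooled over the pieces, the intervals also overlapped for Gnb1, Rgs9 and Gucy2f. Their levels on the Vax2-high side were 0.981, 1.04 and 1.06 times those on the other. No member was called at 2-fold: 0 of 31 in rod-like nuclei, where 0.0445% of genes were, and 0 of 31 in cone-like nuclei, where 0.197% were. In cone-like nuclei 2 members (Sag and Gucy2e) were higher in 4 of 4 pieces, where 6.19% of genes were, and 1 (Rcvrn) was lower, where 5.61% were. For Gucy2e and Rcvrn the pooled intervals of the 2 sides overlapped there. Sag in cone-like nuclei was at 6393 against 4631 CPM overall.

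Likeness between neighbouring nuclei was ranked within each class. The genes, members and cutoff differed between the classes, so their counts do not compare rod-like with cone-like nuclei. In rod-like nuclei Moran's I, which is above 0 when near nuclei have similar levels, was at or above the 95th percentile of 4152 genes for 4 of 23 members, where 5.01% of genes were. Gnb3 ranked 10 with 0.119, Sag 31 with 0.0539, Rgs9bp 120 with 0.0219 and Pdc 133 with 0.0204. With each gene centred on its mean in the piece, Gnb3 ranked 12 with 0.0600 and Sag 29 with 0.0358. The other 8 members were in too few nuclei to test. In cone-like nuclei 13 of 31 members were at or above the 95th percentile of 7954 genes, where 5.0% of genes were, and 14 were after centring on the piece. Of the cone-high members, only Cngb3, Gnb3 and Arr3 were among the 13. The rest were Sag, Gnb1, Pde6b, Cngb1, Slc24a1, Gnat1, Reep6, Guca1b, Pde6a and Gucy2f. The part of rod RNA in these values was not tested. The median of I in cone-like nuclei was 0.0302 for the members and 0.000194 for all genes, and Sag had the highest, at 0.0839. Rod-like nuclei among other photoreceptors and those elsewhere differed in 0 of 31 members at 2-fold, where 0.0284% of genes did. Gnat1 stood at 3340 CPM among photoreceptors and 2586 CPM elsewhere.

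The pathway also holds 39 listed genes that are not members. Of these 0 were rod-high, where 0.0494% of 12155 genes were, and 6 were cone-high, where 4.48% were. Over bipolar-like nuclei 14 were photoreceptor-high, where 10.6% of 13903 genes were. The class-high count was 4, close to the share of all genes, 10.8% of 18451. The cone-high ones were Opn1mw, Slc24a4, Opn1sw, Rgs7, Gnb2 and Atp1b2. Slc24a4, an exchanger related to Slc24a2, stood at 7.36 CPM in rod-like, 596 CPM in cone-like and 1445 CPM in bipolar-like nuclei. Rgs7, which acts on G proteins of bipolar cells, stood at 7.24 CPM in rod-like, 288 CPM in cone-like and 1531 CPM in bipolar-like nuclei. Gng13, a gamma subunit of ON bipolar cells, stood at 172 CPM in bipolar-like nuclei and was class-high. Opn4 was at 0 UMIs in rod-like and in cone-like nuclei.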

How the data were processed

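The deposited matrix holds raw UMI counts, and the deposited position table holds chip coordinates in other units, of unstated length. Per the submitters' processing notes, fastp, STAR, Seurat 4.1.1 and mm10 were used, with no role stated; intron counting, strand and cell calling were not given in the sources used here.

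Nuclei with at least 200 genes and under 10% mitochondrial UMIs were kept. Scrublet marked 0, so it had not worked and doublets remain. Clusters came from 2000 variable genes (6 members among them left out), 30 components, 15 exact neighbours and Leiden at resolution 1, with 2 iterations. A cluster was named with at least 3 leading markers, a best score of at least 0.8 and a second score up to 0.65 of it. Calls needed 20 UMIs and 2-fold between 95% bounds. Shares after thinning used 500 UMIs; 223 rod-like and 6 cone-like nuclei were too shallow. The calling script was tested on simulated data.

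The members and lists were chosen with earlier results of these data known. The named genes are all members, the listed opsins and up to 12 others that passed a call. A gene of the pathway and the results that need it are not reported here. The clustering was revised after results had been seen. Approximate neighbours were used first and were replaced by exact ones so that a rerun gives the same nuclei; running Leiden to convergence was then tried and not kept as the main version. The closing section gives the counts under each. Naming thresholds, the merging of endothelial and mural clusters, the bipolar types, the circle fits that place the pieces (the third version), the rod-like clusters left out, and the genes shown by piece outside photoreceptors and by side were also chosen after the data were seen. Promoter windows are RefSeq's on GRCm38.p6. Clustering used scanpy 1.11.5 with igraph 0.11.9 and scikit-learn 1.9.0; intervals used scipy 1.17.1. Figures used matplotlib 3.10.9 under python 3.11.15.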

Additional observations from a re-analysis of the deposited data

How the results depend on the processing

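No paired analysis was possible because there is 1 expression library and no group to pair it with. Of 127 counts recomputed under alternatives, 115 stayed within 1.5 times the main count. The rod-high count of 0 became 3 at 1.5-fold, at resolution 2, with approximate neighbours and with Leiden run to convergence, and 7 with the members among the variable genes and thinned to 500 UMIs. The count of members that differed between pieces, 1, became 4 at 1.5-fold, 0 at 3-fold, 2 with Leiden run to convergence, with approximate neighbours and with the members among the variable genes, and 0 thinned to 500 UMIs. The cause was not tested. For these counts between pieces, and for the rod-high count at 1.5-fold, the share of all genes under the same setting is not given here. They therefore do not set the members apart from other genes. Approximate neighbours, convergence and 3 other Leiden seeds were added after the data had been seen. Approximate neighbours was the clustering made first; under it and under convergence there were 560 and 561 cone-like nuclei, against 604. The cone-high count was 9 in every alternative, and the paralogue share was higher in cone-like nuclei in 9 of 9 pairs in each of those run. Of 496 log2 ratios of rod-like to cone-like level, 307 stayed within the main interval and 189 moved; none of the 9 called ones changed sign. Low UMI counts limit the cone set in rod-like nuclei, where Cnga3 rests on 22 UMIs.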
